A study of Mus musculus and Homo sapiens with 4 samples.

Results

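A set of 10 interferon-induced antiviral effector genes (Rsad2, Cmpk2, Bst2, Ifi44, Ifi27l2a, Ifi35, Xaf1, Rtp4, Parp14 and Lgals3bp) was followed in mouse embryonic fibroblasts (MEFs) with and without the long non-coding RNA NEAT1. The members were chosen by gene symbol, and they and the gene lists below were chosen with earlier results of these data known. Each member matched 1 of the 23329 entries of the MEF expression values. The series holds 4 RNA-sequencing libraries, of which 2 are from MEFs and the others from VCaP and VCaP ERa prostate cancer cells. MEF WT was a culture from wild-type embryos and MEF NEAT1 KO a culture from NEAT1 knockout embryos, both of C57BL/6 strain, embryonic day E13.5 and passages 2 to 3, grown in DMEM and Ham F12 with serum, with no other treatment named. Each genotype gave 1 poly-A library, so the differences below lack replicates and carry no P-value. The knockout allele, the number of embryos behind each culture and the sequencing dates are not given in the sources used here.

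Cells that sense viral nucleic acid secrete type I interferons, which act through the receptor chains IFNAR1 and IFNAR2 and the kinases JAK1 and TYK2. A transcription factor complex that includes STAT2 and IRF9 then binds the interferon-stimulated response element (ISRE) in the promoters of target genes, whose products interfere with different steps of viral growth. Fibroblasts are a classical responder cell of this pathway, and most nucleated cells hold a low tonic level of it without infection.

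Expression was deposited as RPKM, the read number divided by entry length and by the mapped reads of each library. Neat1 had 29.5 RPKM in WT and 2.01 RPKM in KO, 14.7-fold lower in KO, as its label states. At least 1 RPKM was reached by 11233 entries in WT and by 11118 entries in KO. Among low entries, the commonest product of RPKM and transcript length would place WT at about 31400000 reads and KO at about 29600000 reads if it stood for 1 read. Of the low entries tested, 1777 in WT and 1801 in KO, 45.8% in WT and 48.2% in KO lay within 0.1 of a whole number of such reads. A step of 0.5 of this size was also seen, in 136 entries of WT and 148 of KO, and if it stood for 1 read the read numbers would be 2 times as high and the intervals narrower. These depths, and the read numbers and 95% counting intervals derived from them below, are estimates that cover counting error only. The cultures also differed in Y-linked transcripts. Among 6 such genes the highest level was 0.0174 RPKM in WT and 6.30 RPKM in KO, with 4 of them above their WT level. All 12 fibroblast markers examined were expressed in both libraries, among them Col1a1 with 1477 RPKM in WT and 1874 RPKM in KO.

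All 10 antiviral effectors were higher in KO than in WT. On the scale of log2((KO RPKM + 1)/(WT RPKM + 1)), used for every log2 ratio here, they ranged from 0.63 (Ifi27l2a) to 2.85 (Rtp4) with a median of 1.81, against a median of 0 over all 23329 entries. A log2 ratio above 0 was found for 30.1% of all entries. These include entries listed at 0 in both libraries, which cannot exceed 0, while all 10 genes reached 1 RPKM in WT or KO. Of the 10 genes 9 had a log2 ratio above 1, a share that was 0.977% among all entries, and 4 had a log2 ratio above 2 (Rtp4, Ifi44, Xaf1 and Parp14), against 0.223% of all entries. Parp14 stood at that limit with 2.00, and the next gene below it was Bst2 with 1.82. Restricted to the 11463 entries that reached 1 RPKM in WT or KO, the shares were 1.99% above 1 and 0.454% above 2. Since the set was chosen with earlier results of these data known, these contrasts describe it and test nothing. A log2 ratio below -1 was found for 0.334% of all entries and for 0 of the 10 genes. In bulk RNA, more cells of a type and more RNA per cell cannot be told apart.

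**Figure D1:**
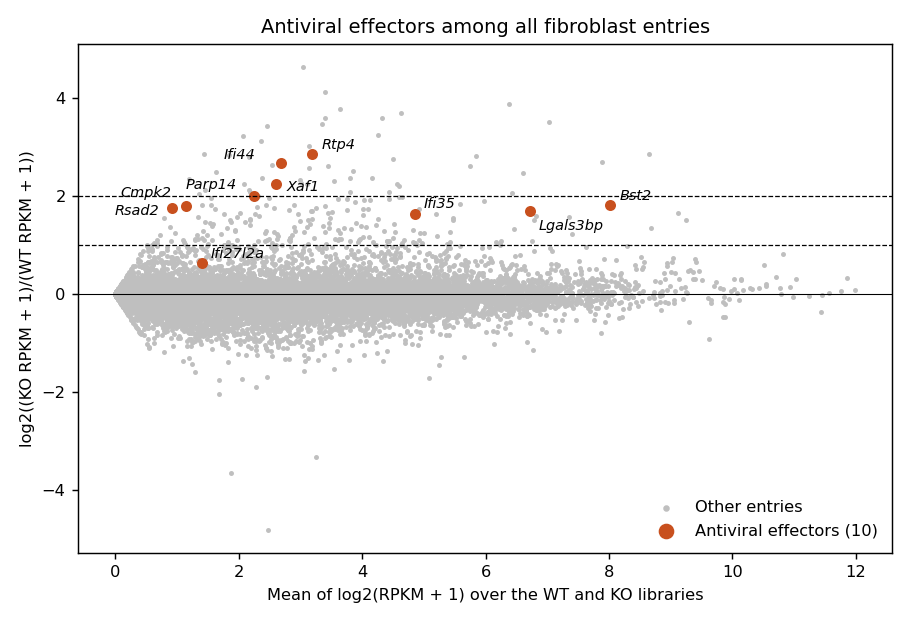
Each point is 1 entry of the MEF libraries, with the mean of log2(RPKM + 1) over the WT and KO libraries on the horizontal axis and the log2 ratio of KO over WT on the vertical axis. Dashed lines mark log2 ratios of 1 and 2. The 10 antiviral effectors (large points) all lie above 0, and 9 of them lie above 1.

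Rsad2 and Cmpk2 were almost silent in WT. Rsad2 encodes viperin, a radical SAM enzyme that converts CTP into a chain-terminating nucleotide, and Cmpk2 encodes a mitochondrial nucleotide kinase. Both genes lie side by side on chromosome 12 of the mm10 assembly, Rsad2 on the minus strand (26442743 to 26456452, 6 exons) and Cmpk2 on the plus strand (26469215 to 26479837, 5 exons), with their start sites facing each other across 12762 bases. Rsad2 had 0.0253 RPKM in WT, an estimated 3 reads, and 2.50 RPKM in KO, an estimated 280 reads. The ratio was 98.7, with a counting interval of 33.5 to 482, the highest of the 10 genes and the least precise. Cmpk2 had 0.178 RPKM in WT and 3.11 RPKM in KO, a ratio of 17.5 (10.8 to 29.7). Because 1 RPKM was added before the logarithm, the log2 ratios of Rsad2 (1.77) and Cmpk2 (1.80) were smaller than those of Ifi44 and Rtp4, whose ratios were lower.

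The promoters were searched for the ISRE core, taken as GAAA, any 2 bases and GAAA, on both strands in the 250 bases before the start site of the RefSeq promoter table, from which the positions below are counted. This start site is that of the deposited entry in Rsad2, Cmpk2, Ifi35 and Xaf1. It lies 35 bases upstream of the entry's start in Bst2, 28 bases upstream in Lgals3bp and 49 bases downstream in Ifi44. Sequences were found for 7 of the 10 members (not Ifi27l2a, Rtp4 and Parp14). That of Rsad2 is shown because it holds an exact copy, on the strand opposite to the gene, from -120 to -111 relative to the start site. It runs 5′ to 3′ on the strand of the gene (RefSeq, GRCm38.p6, the mm10 assembly), and capitals mark the core.
Rsad2, chr12:26456453-26456702, minus strand: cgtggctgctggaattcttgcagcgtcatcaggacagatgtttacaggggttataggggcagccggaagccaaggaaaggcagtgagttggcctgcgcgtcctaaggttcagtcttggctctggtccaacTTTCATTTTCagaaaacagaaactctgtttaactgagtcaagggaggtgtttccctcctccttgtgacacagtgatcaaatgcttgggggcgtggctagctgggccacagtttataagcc

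With 1 mismatch allowed among the fixed letters, the core was also found in Ifi44, Xaf1 and Lgals3bp. These matches are shown in 30 bases each, with the matched letters in capitals. Of the 30 bases shown for Ifi44, 19 lie inside the deposited entry, whose start falls within the matched letters, and those of the other genes lie before it.
Ifi44, chr3:151749941-151749970, minus strand, -60 to -31: cagagTTTCAGTTTTCGTTTCCcgagcagg
Xaf1, chr11:72301599-72301628, plus strand, -30 to -1: gctgggcaaacacTTTCAGTTTTGTTTTCc
Lgals3bp, chr11:118401960-118401989, minus strand, -30 to -1: tcatgtgttttctgAAAATCGAAActaggt

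Bst2 held a pair of overlapping exact cores, from -130 to -121 and from -124 to -115. Next to them lay a match to the gamma-activated sequence, another element of interferon-responsive promoters, searched as TTCNNNGAA, from -136 to -128, which overlaps the first core. Of the 7 promoters 2 held an exact core, against 2.98% of all 32851 promoters searched, and 1 held the gamma-activated sequence, against 7.02%. With 1 mismatch the core was in 5 of the 7, against 31.4% of all promoters, so such matches are common. Cmpk2 and Ifi35 had no match to the core in this window with up to 1 mismatch. Of 28 other interferon-stimulated genes with a promoter sequence 12 held the exact core (42.9%), against 3.38% of the 15708 entries outside the set. Of the 158 entries outside the set with a promoter sequence and a log2 ratio above 1 the core was in 27 (17.1%). These 158 include listed interferon-stimulated genes, so they overlap with the 28, and the share without those genes was not computed. Of the 43 entries with a log2 ratio below -1 the core was in 2 (4.65%). The differences between these shares were not tested. These matches describe letters in the sequence, not occupied sites.

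Bst2 and Lgals3bp were the most abundant members in both libraries. Bst2 encodes tetherin, a membrane protein that holds budding enveloped virions at the cell surface, and lies on the minus strand of chromosome 8 (71534262 to 71537437, 5 exons). Lgals3bp encodes a secreted glycoprotein that binds galectin-3 and lies on the minus strand of chromosome 11 (118392752 to 118401931, 6 exons). Bst2 had 137 RPKM in WT, above 98.4% of the entries, and 488 RPKM in KO, a ratio of 3.56 (3.42 to 3.70) and a log2 ratio of 1.82. Lgals3bp had 57.1 RPKM in WT and 189 RPKM in KO, a ratio of 3.31 (3.19 to 3.42) and a log2 ratio of 1.71. The summed level of the 10 genes was 218 RPKM in WT and 795 RPKM in KO, and Bst2 and Lgals3bp together made up 83.7% of that difference.

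**Figure D2:**
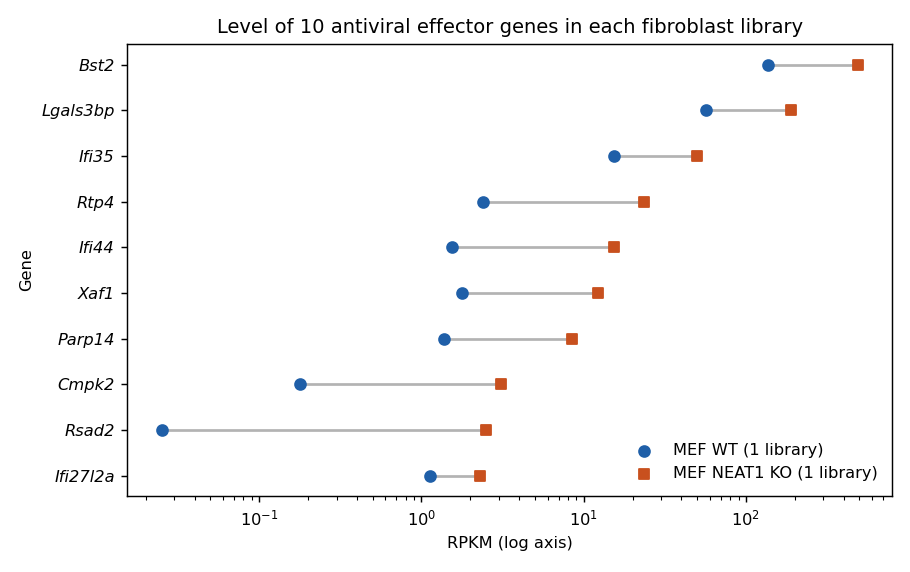
RPKM on a log axis of each of the 10 antiviral effectors in the MEF WT library (circles) and in the MEF NEAT1 KO library (squares), ordered by the KO level. Every square lies to the right of its circle, from Ifi27l2a with 1.13 and 2.29 RPKM to Bst2 with 137 and 488 RPKM.

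The interferon-induced genes Ifi44 and Ifi35 started from different levels in WT. Ifi44, on chromosome 3 (151730923 to 151749959, minus strand, 8 exons), had 1.54 RPKM in WT and 15.4 RPKM in KO, a ratio of 9.98 (8.38 to 11.9) and a log2 ratio of 2.69, which ranked 23 of all entries. Ifi35 encodes a protein that forms a complex with that of Nmi and lies on chromosome 11 (101448412 to 101458701, plus strand, 7 exons). It had 15.3 RPKM in WT and 49.9 RPKM in KO, a ratio of 3.26 (2.98 to 3.56) and a log2 ratio of 1.64. An annotated antisense transcript, Gm11626, overlaps exons of Ifi35, and because the MEF libraries are not stated to keep the strand, reads of both cannot be told apart.

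Xaf1 and Ifi27l2a belong to the genes linked with cell death and mitochondria. Xaf1 encodes an antagonist of the apoptosis inhibitor XIAP and lies on chromosome 11 (72301629 to 72313733, plus strand, 6 exons). It had 1.77 RPKM in WT and 12.2 RPKM in KO, a ratio of 6.90 (5.80 to 8.30) and a log2 ratio of 2.25. Ifi27l2a, a small hydrophobic protein gene of the ISG12 family on chromosome 12 (103442167 to 103443680, minus strand, 4 exons), had 1.13 RPKM in WT and 2.29 RPKM in KO. With an estimated 16 and 31 reads its ratio of 2.03 had a counting interval of 1.09 to 4.02, which reaches almost to equal levels. Its log2 ratio of 0.63 ranked 506, and it was the only member below 1.

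Rtp4 and Parp14 lie on chromosome 16 and were both low in WT. Rtp4 encodes a chaperone of receptors on their way to the cell surface (23609919 to 23614222, plus strand, 2 exons). It had 2.39 RPKM in WT and 23.5 RPKM in KO, a ratio of 9.84 (8.13 to 12.0), and its log2 ratio of 2.85 ranked 17 of all entries, the highest place of the set. Parp14 encodes a large mono-ADP-ribosyltransferase (35832878 to 35871382, minus strand, 17 exons). It had 1.38 RPKM in WT and 8.52 RPKM in KO, a ratio of 6.17 (5.48 to 6.97), and a transcript annotated on the same strand, Gm49730, shares exonic sequence with it.

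The 10 genes fell into different ranges of level and ratio. The 3 genes above 10 RPKM in WT (Bst2, Lgals3bp and Ifi35) had ratios from 3.26 to 3.56, whereas 4 of the 5 genes from 1 to 3 RPKM had ratios from 6.17 (Parp14) to 9.98 (Ifi44). Ifi27l2a, at 1.13 RPKM in WT, was the exception with 2.03. By level in KO the order was Bst2, Lgals3bp, Ifi35, Rtp4, Ifi44, Xaf1, Parp14, Cmpk2, Rsad2 and Ifi27l2a. With 1 library per genotype the spread behind the neighbours in this order is unknown. No correlation of level and ratio was computed, since the WT and KO levels both enter the ratio.

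**Figure D3:**
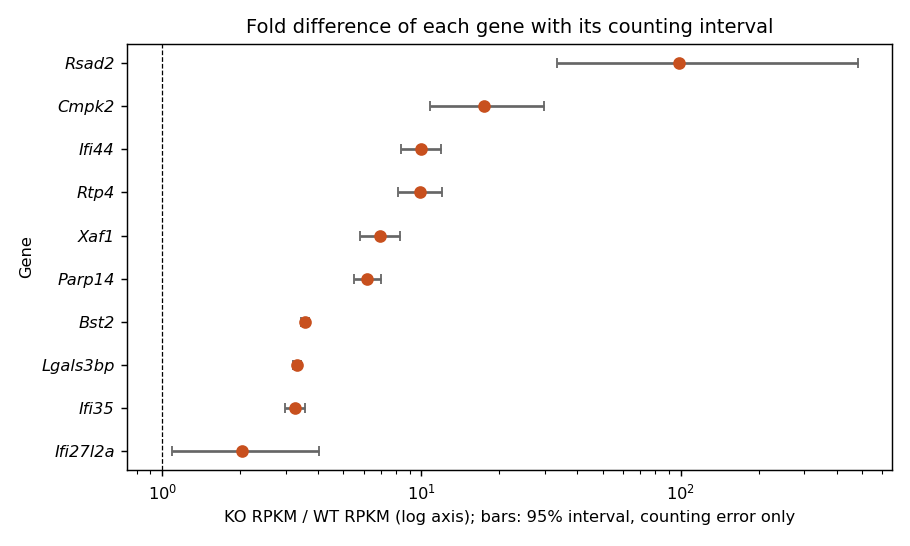
Ratio of KO RPKM to WT RPKM for each of the 10 genes on a log axis, with 95% counting intervals from estimated read numbers as bars and a dashed line at equal levels. The ratios run from 2.03 (Ifi27l2a) to 98.7 (Rsad2), and the bars do not include variation between cultures.

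Relatives and partners of the antiviral effectors were compared next. All 21 genes of a list of such relatives had an entry, of which 7 had a log2 ratio above 1, 0 were below -1, and 3 (Rtp1, Rtp2 and Rtp3) were listed at 0 in both libraries. The median log2 ratio of the list was 0.46, and 0.977% of all entries were above 1. In the family of ADP-ribosyltransferases, Parp9 had 4.17 RPKM in WT and 16.6 RPKM in KO (log2 ratio 1.77), and Dtx3l, the ubiquitin ligase that pairs with the PARP9 protein, had 2.87 and 11.7 RPKM (1.71). Parp10 (1.64), Parp12 (1.36) and Zc3hav1 (1.10), the gene of the zinc-finger antiviral protein that binds viral RNA, were also above 1. Parp1 (-0.23), Parp2 (0.16), Parp3 (0.29) and Parp11 (0.46) were not, although Parp1 and Parp2, which act in DNA repair, were expressed at 12.9 and 6.10 RPKM in WT.

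Among the galectins, Lgals9 had 29.7 RPKM in KO and a log2 ratio of 1.08. Lgals3, the galectin that the Lgals3bp protein binds, had 72.4 and 110 RPKM (0.60), and Lgals1 had 2459 and 2396 RPKM (-0.04). Nmi, the partner of Ifi35, had 1.44 RPKM in WT and 4.09 RPKM in KO (1.06). Xiap, whose product the Xaf1 protein opposes, had 6.17 RPKM in WT and 3.90 RPKM in KO (-0.55). Cmpk1, the cytosolic counterpart of Cmpk2, had 16.8 and 14.8 RPKM (-0.17).

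Ifi44l, the paralogue next to Ifi44 and listed under its older symbol H28, had 0.0248 RPKM in WT and was listed at 0 in KO. Close to Ifi27l2a on chromosome 12, Ifi27, listed as Ifi27l1, had 47.0 RPKM in WT and 81.6 RPKM in KO (log2 ratio 0.78), and Ifi27l2b had 0.203 and 0.680 RPKM (0.48). Ifi27l2a and Ifi27l2b are close copies, so their reads may have been divided between them in a way the sources used here do not state.

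**Figure D4:**
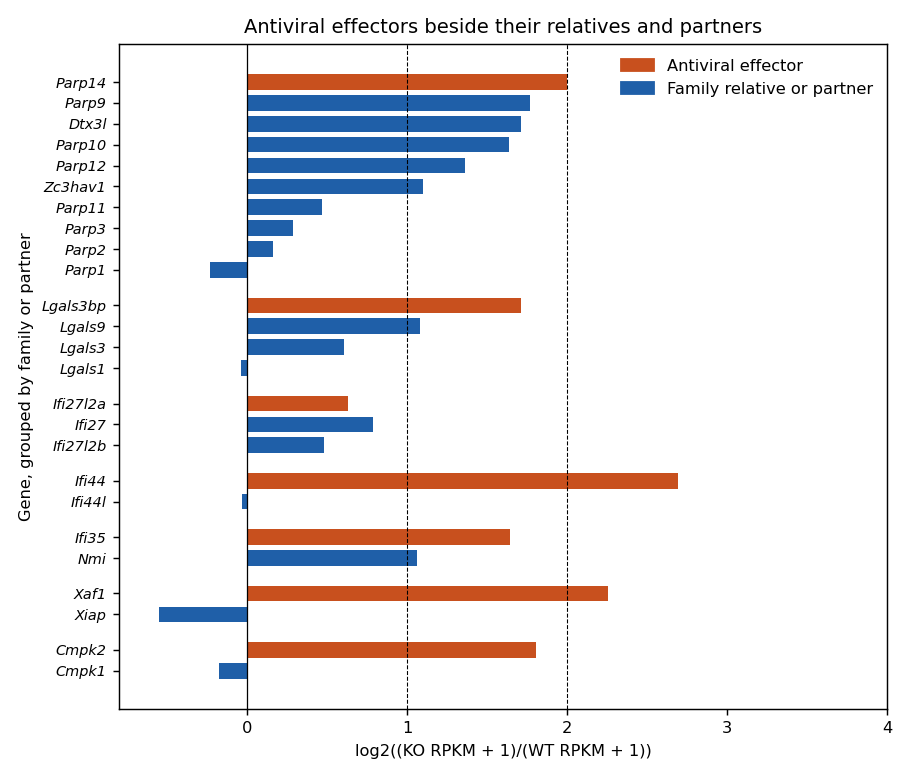
The log2 ratio of KO over WT for 7 antiviral effectors (orange bars) and their family relatives or binding partners (blue bars), with dashed lines at 1 and 2. Parp9, Dtx3l, Parp10, Parp12 and Zc3hav1 lie between 1.10 and 1.77, and Parp11, Parp3, Parp2 and Parp1 between -0.23 and 0.46.

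The genes next to the antiviral effectors on the chromosome mostly did not share their difference. Counting the nearest entry on either side of each gene gave 18 neighbours outside the set. Of these 1 had a log2 ratio above 1 (0.977% of all entries), Dtx3l beside Parp14, and 0 were below -1 (0.334% of all entries). Beside Ifi27l2a (0.63) lay Ifi27l1 (0.78) and Ifi27l2b (0.48). Rsad2 and Cmpk2, which lie next to each other and were both higher in KO, are members and were not counted as neighbours. Vat1, 47 bp from Ifi35, had 250 RPKM in WT and 232 RPKM in KO (log2 ratio -0.11). Fbxo39, 711 bp from Xaf1, was listed at 0 in WT and had 0.0197 RPKM in KO. The 9 neighbours that reached 1 RPKM in WT or KO had a median log2 ratio of -0.0010, against 1.81 for the antiviral effectors. The lowest was that of Masp1 beside Rtp4, with 28.1 RPKM in WT and 15.2 RPKM in KO (-0.85).

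Genes of the interferon pathway itself were examined for context. Of 20 genes for ligands, receptors, kinases and factors 3 had a log2 ratio above 1, namely Irf7 (5.24 RPKM in WT and 58.1 RPKM in KO, 3.24), Stat2 (5.75 and 27.8 RPKM, 2.10) and Irf9 (10.5 and 29.5 RPKM, 1.40), and 0 were below -1. These encode transcription factors of the pathway. The factor genes Irf1 (4.39 and 7.50 RPKM, 0.66) and Irf3 (21.5 and 21.6 RPKM, 0.005) were not above 1. Neither was Socs1 (4.58 and 7.68 RPKM, 0.64). Receptor chains and kinases were expressed in both libraries with log2 ratios from 0.07 (Jak1) to 0.45 (Ifnar2). Interferon transcripts were at or near 0. Ifnb1 was listed at 0 in WT and at 0.0758 RPKM in KO, and Ifna4 at 0.0248 RPKM in WT and 0 in KO. Ifna4 was the only 1 of the 20 genes lower in KO, and 5 of the 20 were listed at 0 in both libraries. Of 36 other interferon-stimulated genes 26 had a log2 ratio above 1 (0.977% of all entries), 35 were higher in KO (30.1%), and the median was 1.53. The highest were Cxcl10 (4.64), Ifit3 (4.13) and Isg15 (3.88). The lowest of these was Samhd1, with 19.8 and 18.2 RPKM (-0.12), and the next was Epsti1, with 0.0270 and 0.158 RPKM (0.17).

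Markers of other cell types that could stand in such cultures were set beside these differences. Of all entries 30.1% were higher in KO and 0.977% had a log2 ratio above 1. Of 14 macrophage genes 13 were higher in KO and 3 had a log2 ratio above 1 (Lyz2, Cd68 and Cd14). The 14 genes summed to 26.4 RPKM in WT and 60.1 RPKM in KO. None of the 14 was listed at 0 in either library. Below 1 RPKM in both libraries were 5 of them, Ptprc (0.0449 and 0.0813 RPKM), Itgam (0.199 and 0.542 RPKM), Csf1r (0.521 and 0.775 RPKM), C1qa (0.935 and 0.892 RPKM) and Aif1. C1qa was the gene lower in KO. Emr1 (0.482 and 1.37 RPKM), Mpeg1 (0.449 and 1.24 RPKM) and Fcer1g (0.944 and 2.68 RPKM) were below 1 RPKM in WT and above it in KO. The other 6 were above 1 RPKM in both. Among them C1qb (1.51 and 1.73 RPKM, log2 ratio 0.12) and C1qc (1.03 and 1.10 RPKM, 0.05) differed little. Genes of B cells and plasmacytoid dendritic cells, cells that also carry tetherin, summed to 0.0686 RPKM in WT and 0.0698 RPKM in KO, and 4 of these 5 genes were listed at 0 in both libraries. The 4 endothelial genes summed to 1.12 RPKM in WT and 0.558 RPKM in KO, and the 4 epithelial genes to 1.05 and 0.677 RPKM. Of the 12 fibroblast markers 10 were higher in KO, and 3 had a log2 ratio above 1, Lum (1.92), Dcn (1.64) and Pdgfra (1.51). The 2 lower in KO were Fn1 (765 and 517 RPKM, -0.56) and Vim (3151 and 2448 RPKM, -0.36). The part of the macrophage transcripts, of these fibroblast genes and of the Y-linked difference in the levels of the antiviral effectors was not tested.

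For each antiviral effector the entry outside the set with the nearest pair of levels was found, by the distance in log2(RPKM + 1) over the 2 MEF libraries. Ifi44 was nearest to Oas1a, a sensor of double-stranded RNA (1.34 RPKM in WT, distance 0.22), and Xaf1 to Apol9a (1.84 and 10.2 RPKM, 0.25). Rtp4 was nearest to the cytokine gene Il6 (2.09 and 24.4 RPKM, 0.14), Parp14 to the chemokine gene Cxcl3 (1.35 and 8.66 RPKM, 0.03), and Bst2 to the matrix protease gene Mmp3 (91.5 and 600 RPKM, 0.65). Rsad2 was nearest to the Y-linked gene Kdm5d, which was listed at 0 in WT and had 1.96 RPKM in KO (0.24). The nearest entries of the other genes were AW011738 for Cmpk2, Afap1l2 for Ifi27l2a, Glrx for Ifi35 and Slc16a3 for Lgals3bp. A likeness over 2 libraries rests on 2 values only.

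**Figure D5:**
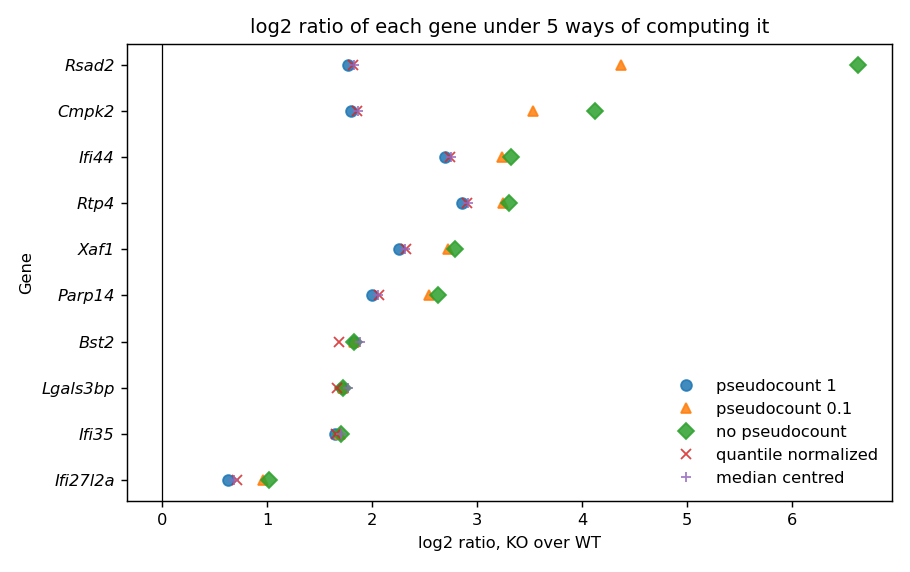
The log2 ratio of KO over WT for each of the 10 genes under 5 ways of computing it, ordered by the ratio without a pseudocount. Points of Bst2, Lgals3bp and Ifi35 lie close together, and those of Rsad2 run from 1.77 with a pseudocount of 1 to 6.62 without one.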

How the data were processed

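RNA was extracted with Trizol, and MEF libraries were prepared from poly-A RNA. The authors deposited RPKM values per RefSeq entry. Their processing notes name CASAVA 1.8 and the builds mm10 and hg18 without roles. The aligner and counter are not given in the sources used here, and no normalization between libraries is stated. Starts in the MEF files are counted from 0 and were raised by 1. The members and gene lists were chosen with earlier results of these data known.

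Log2 ratios used a pseudocount of 1 RPKM and every entry, and entries above 1 or 2 were counted. 1 gene of the pathway list is not reported here. With 1 library per group no test was made. Transcript lengths and overlaps came from GENCODE (mm10), and promoters from RefSeq. Named were the members, their relatives, partners and neighbours, the 3 highest and 2 lowest genes of other lists and the nearest entry by level. In the pathway list only the lowest was named, since the next 5 were tied at 0. Ifnb1, Irf1, Irf3, Socs1, Jak1, Ifnar2, the cell type markers and KLK2 were chosen for naming after their values were seen. Values were recomputed with 0.1 RPKM added, over entries of at least 1 RPKM, with centring on the median of expressed entries, with quantile normalization and with 1 entry per symbol. No pseudocount, the counting intervals and the motif search with 1 mismatch were added after seeing the data. Calls and depth estimates were tested on simulated whole reads, with the changed entries at higher levels than most members had in WT. Many low entries here did not lie at whole reads, so these tests do not establish the calls or depths used here. Python 3.11.15, numpy 2.4.6, pandas 2.3.3, scipy 1.17.1 and matplotlib 3.10.9 were used.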

Additional observations from a re-analysis of the deposited data

How the results depend on the processing

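All 10 antiviral effectors were higher in KO under each of the 6 alternatives. Only quantile normalization could have changed a direction. Centring raised every log2 ratio, since the median of expressed entries was -0.059. A changed pseudocount keeps the sign, and the minimum of 1 RPKM and 1 entry per symbol gave the main values again. The median log2 ratio was 2.63 with a pseudocount of 0.1 and 2.71 without one, where the values of Rsad2 were 4.37 and 6.62. It lay between 1.81 and 1.87 with centring, quantile normalization, a minimum of 1 RPKM and 1 entry per symbol. The number of genes above 2 was 4 under these and 6 with either change of the pseudocount, the share of all entries above 2 then being 0.506% and, over 15700 entries, 1.85%. Of the 10 genes 9 were above 1 (0.977% of all entries), also with a pseudocount of 0.1 (2.14%), or 10 without a pseudocount (5.88%). For the human counterparts, the number lower in VCaP ERa was 8, centring on the median of expressed entries made it 5, and quantile normalization made it 9. No paired analysis was possible because each group holds 1 library. Low WT levels limit Rsad2, Cmpk2 and Ifi27l2a, whose ratios rest on an estimated 3, 18 and 16 reads.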

Other observations

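The human counterparts that the MEF files name for the 10 genes were all present among the 25932 entries of the VCaP libraries, which were made without poly-A selection and with 1 library per condition. LGALS3BP was the most abundant, with 145 RPKM (library labelled VCaP) and 5.63 RPKM (VCaP ERa). In the same order, BST2 had 4.33 and 0.544 RPKM, IFI27L2 had 8.41 and 1.62 RPKM, and IFI35 had 3.08 and 0.362 RPKM. PARP14 had 2.82 and 0.849 RPKM. Of the 10 genes 8 were lower in VCaP ERa, against 41.2% of all entries, or 5 after centring on the median of expressed entries, against 25.9%, or 9 with quantile normalization, against 53.1%. Among the 22771 entries above 0 in VCaP or VCaP ERa, these shares were 46.9%, 29.5% and 46.6%. Without centring 5 had a log2 ratio below -1, against 18.5% of all entries. IFI44 went the other way, from 0.246 to 1.51 RPKM. RSAD2, CMPK2, XAF1 and RTP4 were below 1 RPKM in both libraries, and RTP4 was listed at 0 in VCaP ERa. These libraries differed in much else, for example in the prostate gene KLK2, at 0.0264 and 452 RPKM, a gene that VCaP cells are known to express. ESR1, the gene of the estrogen receptor, had 15.7 and 209 RPKM, higher in the library labelled VCaP ERa. The identity of the library labelled VCaP was not settled here.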
